A study of Mus musculus with 6 samples.

Results

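Complex I of the mitochondrial respiratory chain was followed through 41 nuclear genes whose symbols begin with Nduf, 33 of them named as subunits and 8 as assembly factors (Ndufaf). They were taken by name from the 22180 genes that had a probe set of their own on the array, and 44 of the 41345 probe sets belonged to them. RNA came from lineage-Sca1+cKit+ (LSK) bone marrow cells, the fraction with hematopoietic stem cells and multipotent progenitors. By label the cells were Tifab+/+ (WT) or Tifab-/- (KO), in an experiment with marrow transplantation. Each genotype had 3 mice and 3 Affymetrix arrays. The labels name lethally irradiated Boy/J recipients, given 7.0 Gy and then 4.75 Gy 3 hours later, for both genotypes, so irradiation and transplantation are common to the groups. Their wording leaves unclear whether the profiled cells were sorted from these recipients or injected into them, whether 3 months is an age or a time since transplantation, and whether host cells were gated out. The question of the series is how loss of Tifab, which encodes a relative of the TRAF6 adaptor TIFA, alters the expression profile of these cells once they have engrafted and while blood formation has not yet failed.

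Complex I takes electrons from NADH, passes them through a flavin and a chain of iron-sulfur clusters to ubiquinone, and pumps protons across the inner mitochondrial membrane. A hydrophilic arm holds the NADH-oxidising and quinone-reducing modules, a membrane arm holds the proton pumps, and the central subunits of the membrane arm are encoded by mitochondrial DNA. Assembly factors join and modify the modules and are absent from the finished enzyme. Hematopoietic stem cells are known for relying little on respiration at rest and for drawing on it when they divide and differentiate.

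Of the markers of the sort, Kit had log2 signals of 9.41 to 9.69, while Ly6a (Sca1) was not analysed here. Cd34, on the list of LSK genes but no marker of the sort, read 10.32 to 10.66. For the deleted gene Tifab, log2 signal was 4.99, 5.37 and 5.53 in wild-type arrays and 5.21, 5.12 and 5.26 in knockout arrays, so it did not separate the groups (where its probes lie relative to the deletion is not given here), and "wild type" and "knockout" below mean the labels. Markers of other cells were followed as list means. The mean log2 signal of 10 mature neutrophil genes ran from 7.70 to 8.01 in wild type and from 7.58 to 7.94 in knockout. The brightest of these genes were as bright as Kit or Cd34 or brighter. S100a8 read 11.41 to 11.57, S100a9 10.54 to 10.76 and Camp 9.06 to 10.4 over all arrays. The mean of 4 erythroid genes ran from 5.17 to 5.89 in wild type and from 5.44 to 5.71 in knockout. That of 8 macrophage genes ran from 4.73 to 4.93 and from 4.79 to 4.95. At an unadjusted p under 0.05 in limma, 1 of 8 LSK genes was higher in knockout (Meis1, 0.39) and 1 lower (Hlf, -0.33). The groups did not overlap in either. At that p, 1 neutrophil gene and 2 macrophage genes were lower in knockout, and 1 macrophage gene was higher. It was reached by 0 of 4 erythroid, 0 of 6 B cell and 0 of 7 T and NK cell genes. Over all genes, 4.74% were higher and 5.51% lower at that p. The part of these markers in the results was not tested. In sorted bulk cells, fewer cells of a type and less RNA per cell cannot be told apart.

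Complex I genes as a group lay slightly on the higher side in the knockout arrays, and no member passed the adjusted threshold of 0.05. Of the 41 genes, 31 had a higher and 10 a lower mean in knockout, where 50% of all genes had a higher one. In limma, 0 members passed after Benjamini-Hochberg adjustment over all genes (0% of all genes passed), and the lowest adjusted p among them was 0.362. Unadjusted p under 0.05 was reached by 5 members in the higher direction, where 4.74% of all genes did so, and by 0 in the lower direction, where 5.51% did (10.3% of all genes in either direction). The lower count of 0 became 1, the subunit gene Ndufs5, without the intensity trend, after quantile normalization, cyclic loess or median centring, and 2, Ndufs5 and Ndufv1, without wild-type replicate 3. The 5 higher genes were the distal membrane arm genes Ndufb3, Ndufb9 and Ndufb10, the NADH-oxidising gene Ndufv2 and the assembly factor gene Ndufaf6. The groups did not overlap for 6 members with higher knockout values, against 7.75% of all genes, and for 1 with lower values, against 8.37%. After quantile normalization or cyclic loess, 26 of 41 lay on the higher side.

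Subunits and assembly factors were taken apart and set against genes of like signal. The median over the 33 subunit genes was a log2 fold change (knockout minus wild type) of 0.079, with 24 higher and 9 lower, and over all genes it was 0. It was 0.021 after quantile normalization, with 19 of 33 higher, and 0.013 after cyclic loess, with 20 of 33 higher. Bright genes as a whole lay on the higher side in knockout: the brightest of 20 equally large groups of all genes, which holds 16 of the subunits, had a median of 0.062 and 62.5% above 0. In that group 12.4% of genes were higher at an unadjusted p under 0.05, and so were 2 of the 16 subunits. Measured against genes within 0.25 log2 units of their own mean signal, the subunits had a median difference of 0.017, and 19 of 33 lay above such genes. Over the 8 assembly factor genes the median was 0.191, with 7 higher and 1 lower, and a median of 0.174 relative to genes of like signal, which came down to 0.061 without wild-type replicate 1. Whether the classes differ was not tested.

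**Figure D1:**
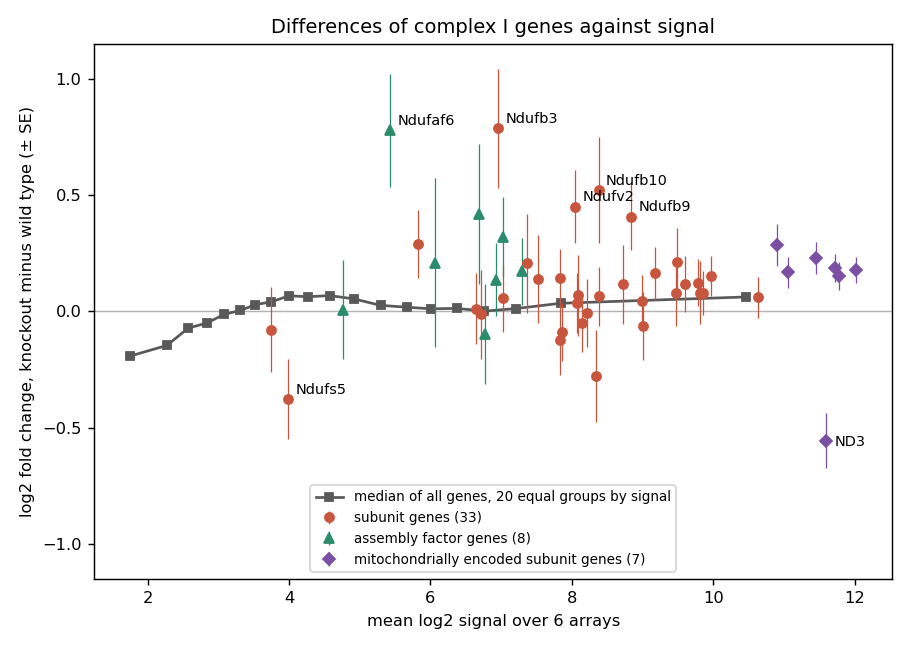
Log2 fold change (knockout minus wild type, ± SE, n = 3 arrays per group) of each complex I gene against its mean log2 signal over 6 arrays; squares joined by a line are the medians of 20 equally large groups of all 22180 genes by signal. Most subunits lie near the line, Ndufb3 at 0.79 and Ndufaf6 at 0.78 stand highest, and the mitochondrially encoded ND3 lies at -0.56 below the other 6 mitochondrial subunit genes.

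The NADH-oxidising arm binds NADH and holds the flavin. Of its 9 measured genes, 6 were higher and 3 lower in knockout (median 0.116 on the log2 scale). Against 4.74% of all genes, 1 was higher at an unadjusted p under 0.05 in limma. That gene was Ndufv2, an iron-sulfur core subunit next to the flavin site. It read 7.58, 7.81 and 8.09 in the wild-type arrays and 8.15, 8.42 and 8.26 in the knockout arrays. All 3 knockout values lay above all wild-type values, the nearest pair being close. The log2 fold change was 0.45 ± 0.16 (SE, n = 3 per group; limma adjusted p = 0.397), or 1.37-fold, and it came down to 0.33 without wild-type replicate 1. Ndufv1, which carries the flavin and the NADH site, read 8.57, 8.78 and 8.08 in wild type and 8.31, 7.91 and 8.37 in knockout. Its groups overlapped, at -0.28 ± 0.20 (SE), and the value moved between -0.47, with wild-type replicate 3 left out, and -0.12, with replicate 2 of that group left out.

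Ndufs1, the largest core subunit of this arm, read 6.63, 6.81 and 6.49 in wild type and 6.61, 6.78 and 6.58 in knockout, a log2 fold change of 0.01 ± 0.15 (SE). Its arrays were interleaved. A second probe set shared by Ndufs1 and Ino80dos, outside the rule, gave -0.23. Ndufa6, an accessory subunit of the LYR protein family, read 9.14, 9.59 and 9.41 against 9.42, 9.55 and 9.81 and had 0.21 ± 0.14 (SE). Ndufa12, a paralog of the assembly factor Ndufaf2, read 9.89, 9.83 and 9.96 against 10.02, 10.04 and 10.08. Its groups did not overlap, and at 0.15 ± 0.09 (SE) the difference was small. A second probe set of Ndufa12 gave 0.26. Ndufs4, whose loss causes a Leigh-like brain disease in mice, had 0.12 ± 0.17 (SE), Ndufa2 0.12 ± 0.12 (SE), Ndufv3 -0.01 and Ndufa7 -0.05. Ndufs6 had no probe set of its own. Of the probe sets it shares with Ndufs6b, also outside the rule, the dimmer gave -0.06 ± 0.17 (SE). The brighter read 9.38, 9.54 and 9.70 in wild type and 9.84, 10.06 and 9.73 in knockout, without overlap at 0.33 ± 0.13 (SE).

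The quinone-reducing arm carries the electrons on to ubiquinone. Of 5 measured genes, 3 were higher and 2 lower, with a median of 0.036 and 0 at an unadjusted p under 0.05 in limma. Ndufs3, a core subunit that helps found this module during assembly, read 5.63, 5.74 and 5.65 in wild type and 5.87, 5.98 and 6.03 in knockout. Its groups were tight and did not overlap, at 0.29 ± 0.15 (SE, adjusted p = 0.529), and the value stayed between 0.25 and 0.33 with any single array left out. Ndufs7, the core subunit with the last iron-sulfur cluster before ubiquinone, read 7.86, 7.88 and 7.97 against 7.76, 7.94 and 7.73, a difference of -0.09 ± 0.13 (SE). Ndufs8, a core subunit with a pair of clusters, read 7.68, 8.24 and 8.25 against 8.21, 8.2 and 7.97. In Ndufs8 the lowest value was that of wild-type replicate 1, and the difference of 0.07 ± 0.17 (SE) became -0.12 without it. The accessory genes Ndufa5 and Ndufa9 had -0.01 and 0.04. The 6 measured nuclear genes for core subunits in both modules of the hydrophilic arm had a median of 0.041, and the groups did not overlap for Ndufv2 and Ndufs3.

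The proximal membrane arm joins the hydrophilic arm to the membrane. Of its 9 measured genes, 8 were higher and 1 lower in knockout, within a narrow band: the median was 0.079, the highest value 0.16, and 0 of 9 reached an unadjusted p under 0.05 in limma. The highest was Ndufa1, an X-linked gene for a small membrane subunit, which read 9.04, 9.27 and 8.96 in wild type and 9.27, 9.27 and 9.22 in knockout (0.16 ± 0.11, SE). Ndufa13, also known as GRIM-19, had 0.08 ± 0.14 (SE) and turned to -0.08 without wild-type replicate 1, since that array read 9.45 and the other 5 lay between 9.81 and 9.98. Ndufc2 had 0.12, Ndufa3 0.08, Ndufa10 0.07 and Ndufc1 0.06. Ndufa11 and Ndufa8 had 0.08 and 0.04, and their second probe sets gave 0.25 and 0.05.

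The gene on the lower side was Ndufs5, for a subunit on the intermembrane face. It read 4.47, 4.06 and 4.01 in wild type and 3.91, 3.75 and 3.75 in knockout, near the median signal of all probe sets. The groups did not overlap, and the log2 fold change was -0.38 ± 0.17 (SE, limma adjusted p = 0.490), or -0.23 without wild-type replicate 1. A probe set shared by Ndufs5 and the pseudogene Ndufs5-ps read 7.30, 6.65 and 7.13 against 7.20, 6.37 and 6.41, a difference of -0.37 ± 0.28 (SE) with overlapping groups. Signal from the gene and its copy cannot be told apart there.

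The distal membrane arm is built from the Ndufb subunits around the last proton pumps. Of its 8 measured genes, 6 were higher and 2 lower (median 0.176 on the log2 scale), and 3 were higher at an unadjusted p under 0.05, against 4.74% of all genes (0 passed the adjusted threshold in limma). Relative to genes of like signal the median was 0.153, and 6 of 8 lay above such genes. Ndufb9 and Ndufb10 lie in the brightest of the 20 groups by signal, where 12.4% of genes were higher at that unadjusted p. In the group that holds Ndufb3, 3.07% were. Ndufb3, a single-pass membrane subunit, read 6.29, 6.37 and 7.03 in wild type and 7.69, 6.88 and 7.48 in knockout. Knockout replicate 2 lay below wild-type replicate 3, so the groups overlapped. The log2 fold change of 0.79 ± 0.25 (SE, limma adjusted p = 0.371), or 1.73-fold, was the largest among the subunits, and it ranged from 0.62 without knockout replicate 1 to 1.02 without knockout replicate 2.

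Ndufb9, another LYR protein, read 8.63, 8.37 and 8.91 in wild type and 9.02, 9.13 and 8.98 in knockout. The knockout arrays were tight and lay just above the highest wild-type array, at 0.41 ± 0.14 (SE, limma adjusted p = 0.409), or 0.28 without wild-type replicate 2. Ndufb10, a disulfide-bonded subunit of the intermembrane face, read 8.04, 8.03 and 8.28 against 9.23, 8.41 and 8.28. Knockout replicate 1 stood apart, and without it the log2 fold change came down from 0.52 ± 0.23 (SE) to 0.23. Ndufb5 read 7.19, 6.89 and 7.71 against 7.33, 7.40 and 7.69, with 0.21 ± 0.21 (SE), which became 0.02 without wild-type replicate 2. Ndufb6 read 7.66, 7.86 and 7.77 against 7.87, 7.92 and 7.94, without overlap and at 0.14 ± 0.12 (SE). Ndufb11, which is X-linked, had 0.14 and turned to -0.07 without knockout replicate 3. On the lower side Ndufb8 read 7.76, 7.82 and 8.11 against 7.81, 7.60 and 7.92 (-0.12 ± 0.15, SE), and Ndufb7 had -0.06.

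Neither Ndufb1, Ndufb2 nor Ndufb4 had a probe set of its own. The probe set shared by Ndufb4 and its copies Ndufb4b and Ndufb4c read 7.31, 7.42 and 7.30 in wild type and 7.57, 7.78 and 7.69 in knockout, a difference of 0.34 ± 0.12 (SE) without overlap. That shared by Ndufb2 and Adck2 gave 0.41 ± 0.24 (SE). These probe sets lie outside the rule and enter no count above.

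The promoters of Ndufb3, Ndufv2 and Ndufb10 are shown because, among the subunit genes with an entry in the RefSeq promoter table used here, these had the largest differences. Each run is the 250 bases before the annotated start in GRCm38.p6, with CCAAT boxes (CCAAT) and GC boxes (GGGCGG) on either strand in capitals. The run of Ndufb3 is chr1:58586147-58586396 on the + strand, that of Ndufv2 is chr17:66101560-66101809 on the - strand and that of Ndufb10 is chr17:24724424-24724673 on the - strand.
Ndufb3: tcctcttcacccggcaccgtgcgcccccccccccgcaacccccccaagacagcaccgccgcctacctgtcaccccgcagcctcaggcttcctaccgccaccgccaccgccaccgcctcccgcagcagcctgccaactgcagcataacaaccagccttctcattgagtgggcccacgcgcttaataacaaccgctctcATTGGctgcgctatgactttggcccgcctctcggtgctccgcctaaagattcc
Ndufv2: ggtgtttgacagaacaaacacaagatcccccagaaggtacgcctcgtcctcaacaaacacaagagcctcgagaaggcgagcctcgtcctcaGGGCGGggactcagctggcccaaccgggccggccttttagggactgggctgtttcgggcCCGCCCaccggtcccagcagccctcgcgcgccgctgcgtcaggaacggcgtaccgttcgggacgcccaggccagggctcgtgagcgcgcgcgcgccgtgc
Ndufb10: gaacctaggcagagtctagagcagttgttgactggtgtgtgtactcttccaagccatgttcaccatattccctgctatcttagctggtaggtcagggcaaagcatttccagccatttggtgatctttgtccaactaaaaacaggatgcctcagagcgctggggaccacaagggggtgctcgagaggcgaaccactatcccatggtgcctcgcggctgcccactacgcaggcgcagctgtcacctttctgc
Ndufb3 holds 1 CCAAT box and 0 GC boxes in a run of 65.6% G and C, Ndufv2 holds 2 GC boxes at 68.0%, and Ndufb10 holds neither at 54.4%. The 3 runs thus have no box in common.

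**Figure D2:**
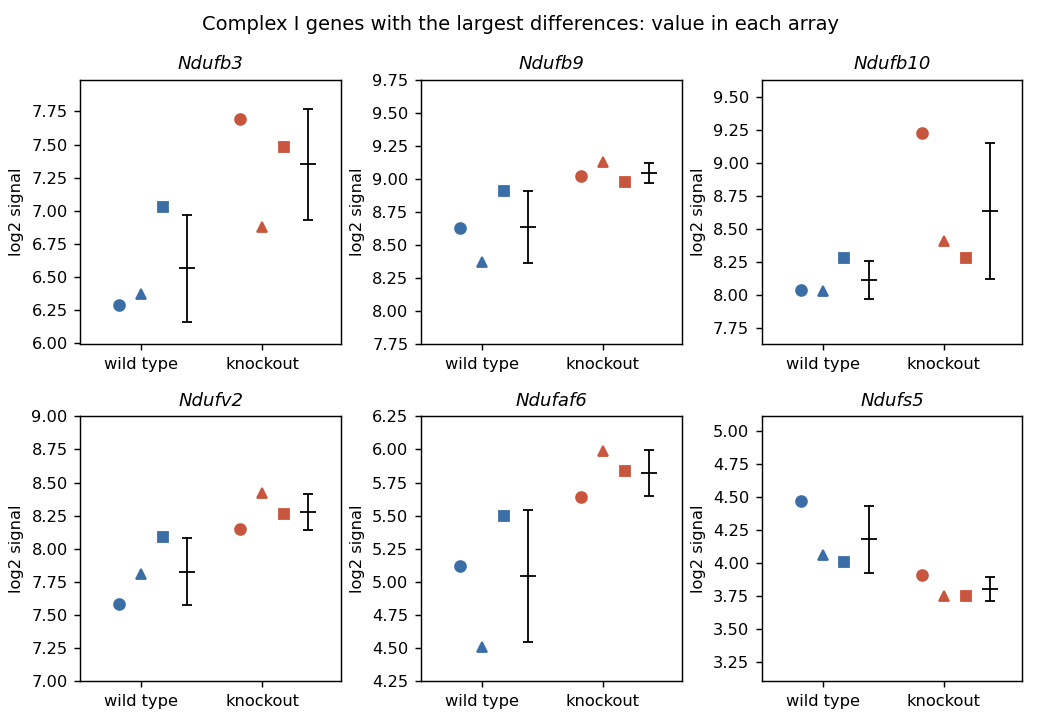
Log2 signal in each array for the 5 complex I genes with an unadjusted p under 0.05 and for Ndufs5; circles, triangles and squares are replicates 1, 2 and 3, bars give the mean ± SD (n = 3), and every panel spans 2 log2 units. Groups overlap in Ndufb3 and meet in Ndufb10, where knockout replicate 1 stands at 9.23, and do not overlap in the other 4 genes.

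Ndufa4 and Ndufa4l2 carry the family name but lie outside complex I: Ndufa4 is now counted with cytochrome c oxidase, and Ndufa4l2 is a hypoxia-induced relative. Ndufa4 had 0.06 ± 0.09 (SE). Ndufa4l2 read 3.90, 4.02 and 3.43 in wild type and 3.75, 3.61 and 3.75 in knockout, a dim signal with a difference of -0.08 ± 0.18 (SE). Without this pair, the median of the subunits was 0.081.

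Among the assembly factors, Ndufaf6, which acts early in assembly on the module around ND1, had the largest difference. It read 5.12, 4.51 and 5.50 in wild type and 5.64, 5.99 and 5.84 in knockout. All knockout arrays lay above all wild-type arrays. The log2 fold change was 0.78 ± 0.24 (SE, limma adjusted p = 0.362), or 1.72-fold, and it ranged from 0.51, with wild-type replicate 2 left out, to 1.01, with replicate 3 of that group left out. Its unadjusted p stayed under 0.05 in 6 of 6 such fits. The partners Ndufaf8 and Ndufaf5, which together modify Ndufs7, were both measured. Ndufaf8 read 6.59, 7.06 and 6.96 against 7.33, 7.26 and 6.99, and Ndufaf5 read 4.66, 4.66 and 4.94 against 5.15, 4.74 and 4.39. Ndufaf8 had 0.32 ± 0.17 (SE) with only knockout replicate 3 inside the wild-type range, and Ndufaf5 had 0.01 ± 0.21 (SE).

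Ndufaf1, a member of the membrane complex that builds the proximal arm, read 6.51, 6.33 and 6.59 in wild type and 6.51, 6.46 and 7.71 in knockout. Its 0.42 ± 0.30 (SE) rested on knockout replicate 3, and without that array it was 0.01. Ndufaf2, a chaperone of late assembly, read 7.03, 7.41 and 7.18 against 7.34, 7.40 and 7.39 (0.17 ± 0.14, SE). Ndufaf3 and Ndufaf4, which bind each other on the early quinone module, read 6.81, 7.23 and 6.42 against 6.80, 6.51 and 6.86, and 6.62, 6.95 and 7.02 against 6.91, 7.04 and 7.05. These pairs of groups overlapped, at -0.10 ± 0.21 (SE) and 0.14 ± 0.16 (SE). Ndufaf7, a mitochondrial methyltransferase, read 4.97, 6.50 and 6.42 against 6.20, 5.95 and 6.38. Its wild-type replicate 1 lay far below the other 5 arrays, and its 0.21 ± 0.36 (SE) turned to -0.29 without that array. Ndufaf2 and Ndufs4 are on chromosome 13 in RefSeq, as is Tifab, and neither had an unadjusted p under 0.05. Ndufs6, without a probe set of its own, is on that chromosome too. Of the probe sets it shares with Ndufs6b, the brighter was higher in knockout at 0.33 ± 0.13 (SE), without overlap. Its unadjusted p was 0.0378 in limma over all probe sets. The dimmer had -0.06 ± 0.17 (SE) and a p of 0.718 in that fit.

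Wild-type replicate 1 was the lowest array for 20 of the 41 genes, 16 of them subunits and 4 assembly factors. It was lowest for 21.8% of all genes and for 33.2% of the brightest genes, the top 2 of the 20 groups by signal. The median deviation of the 33 subunits from their own 6-array means was -0.145 in that array, 0.019 and 0.016 in the other wild-type arrays and 0.032 to 0.034 in the knockout arrays. In the assembly factors it was -0.286 in that array against -0.001 to 0.106 in the other 5. The SD was larger among the wild-type than the knockout arrays in 27 of 41 genes (65.9%), which is near the 60.7% of all genes. Without wild-type replicate 1, 18 of 33 subunits and 5 of 8 assembly factors lay on the higher side, the medians were 0.005 and 0.050, and 2 subunits were higher at an unadjusted p under 0.05. In the same array the means of the erythroid (5.17), B cell (4.67) and macrophage genes (4.73) were lowest. Those of the neutrophil (8.01) and T and NK cell genes (4.90) were highest. Members of a list did not all follow its mean. Among erythroid genes, Car1 had its lowest value there (6.29) and Slc4a1 its highest (5.67). Among neutrophil genes, Ltf had its highest value there (8.18) and Retnlg its lowest (6.75). The part of these genes in the complex I values was not tested.

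**Figure D3:**
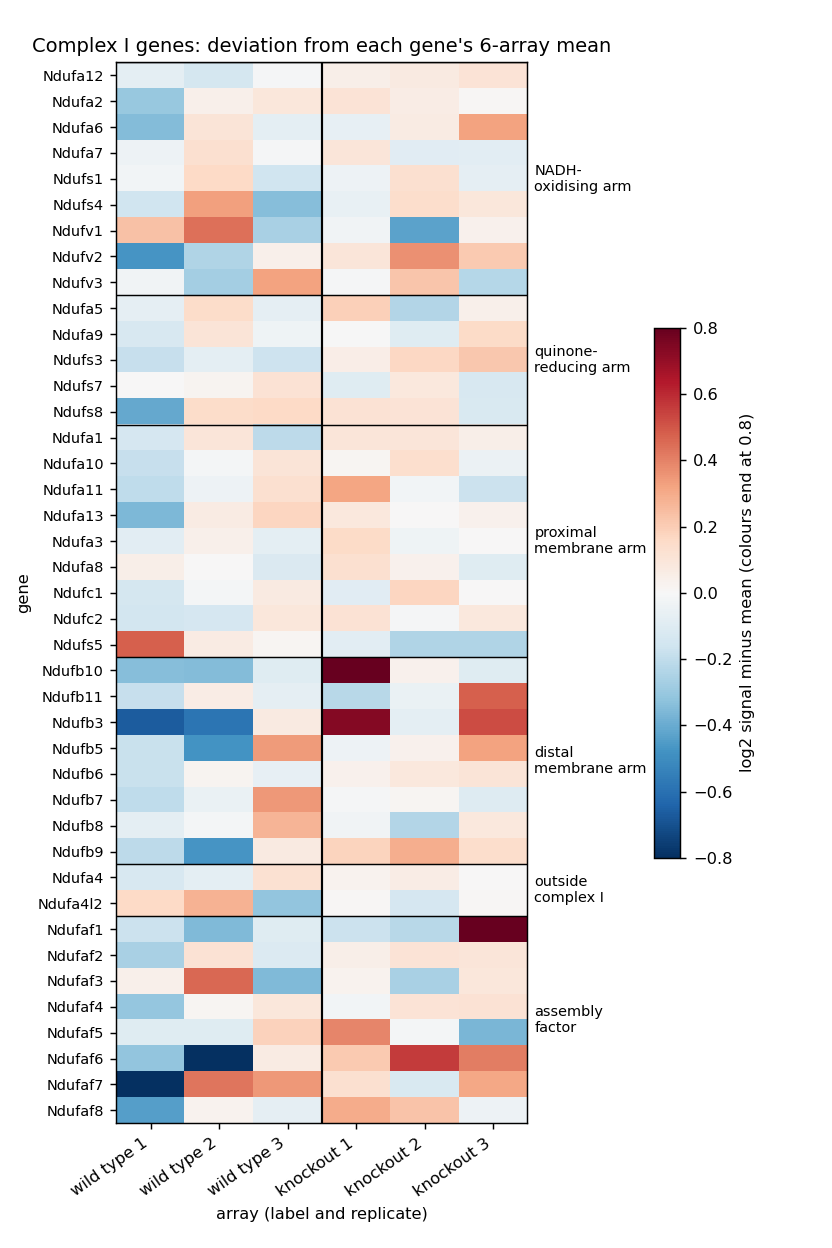
Deviation of each complex I gene from its own 6-array mean (log2 units, red above and blue below, colours ending at 0.8), with genes in rows by module and arrays in columns. Wild-type replicate 1 is blue in most rows, while single arrays stand out in Ndufb10 (knockout 1), Ndufaf1 (knockout 3) and Ndufaf7 (wild type 1).

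The 7 subunits encoded by mitochondrial DNA form the core of the membrane arm, and none carries an Nduf name. They were on a list of complex I genes with other names, and the count below was made after their values were seen. In 6 of the 7 the knockout arrays lay above all wild-type arrays, and in ND3 they lay below all of them, against 7.75% and 8.37% of all genes. ND1, the subunit next to the quinone site, read 11.67, 11.60 and 11.63 in wild type and 11.80, 11.82 and 11.83 in knockout (0.19 ± 0.06, SE). ND2, an antiporter-like pump subunit, had the largest difference among the higher ones, from 10.76 ± 0.14 to 11.04 ± 0.05 (SD, n = 3 each), or 0.29 ± 0.09 (SE). ND6, the only one of them encoded on the other strand of the mitochondrial genome, read 11.28, 11.41 and 11.34 against 11.58, 11.51 and 11.64 (0.23 ± 0.07, SE). The pump subunits ND4 and ND5 had 0.18 and 0.15, and ND4L had 0.17.

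ND3, a small subunit at the junction of the arms, read 11.69, 11.86 and 12.06 in wild type and 11.50, 11.11 and 11.33 in knockout. This was a log2 fold change of -0.56 ± 0.12 (SE, n = 3 per group; limma adjusted p = 0.297), and it lay between -0.45 and -0.67 over every alternative run. The other 6 had adjusted p of 0.356 to 0.459, so none of the 7 passed, while 6 had higher values and 1 a lower one with an unadjusted p below 0.05, against 4.74% and 5.51% of all genes and 12.4% and 4.51% of the brightest of the 20 groups. The size of the 6 higher values was small and moved with the scaling: the median over the 7 was 0.178 as deposited, 0.091 after quantile normalization and 0.069 after cyclic loess, where 2 and 1 of them were still higher at an unadjusted p under 0.05. It was 0 of 7 without the intensity trend in limma and 4 after median centring. All 6 kept a higher mean in knockout under each of these settings and with any single array left out. At most 49 genes shared the signal of any of these probe sets within 0.25 log2 units, and relative to such genes the 6 lay 0.05 to 0.19 higher and ND3 -0.65. The genes of like signal include the mitochondrial genes themselves, so these differences are partly measured against the same set. Signal from nuclear copies of mitochondrial sequence cannot be told apart in these probe sets. The other measured genes of the mitochondrial genome, COX1, COX3 and CYTB, had 0.21, 0.24 and 0.27, also without overlap.

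**Figure D4:**
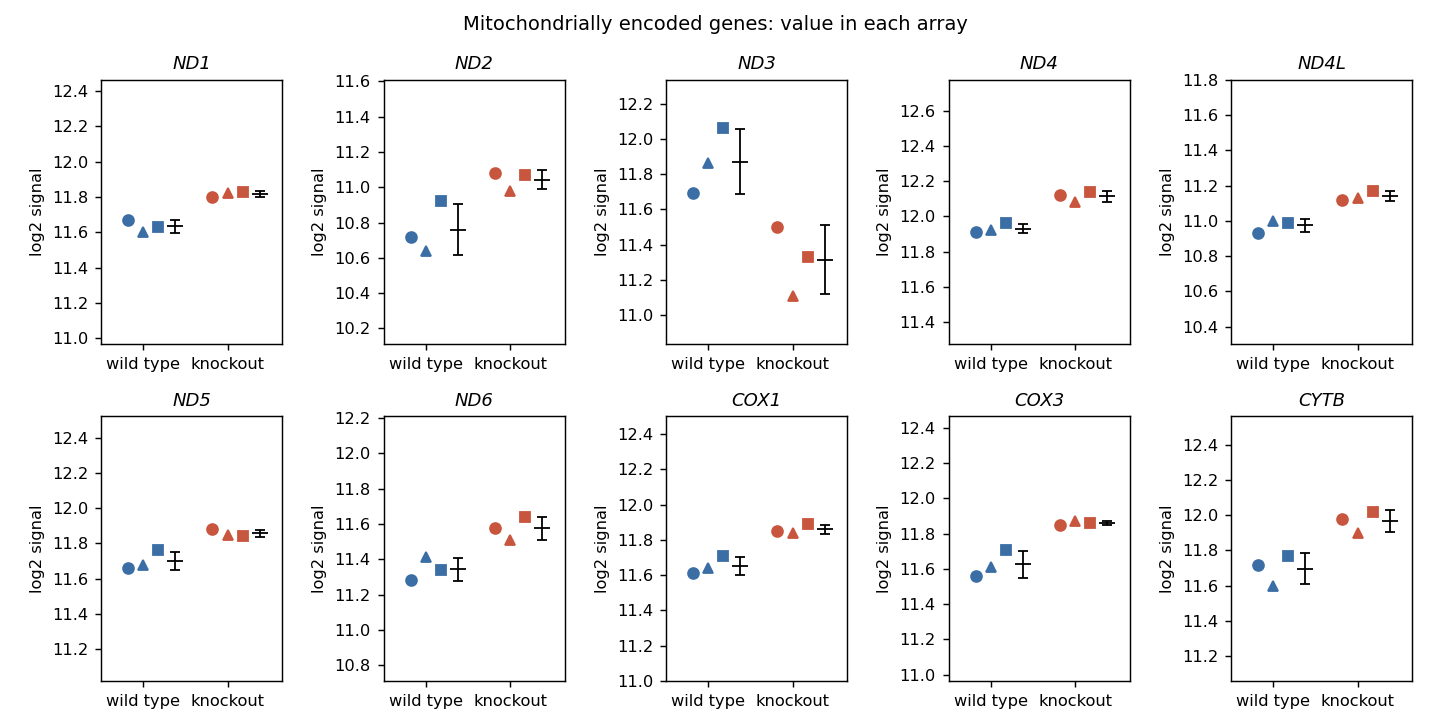
Log2 signal in each array for the 7 mitochondrially encoded complex I subunit genes and the 3 other measured genes of the mitochondrial genome; circles, triangles and squares are replicates 1, 2 and 3, bars give the mean ± SD (n = 3), on axes of equal span. Knockout values lie above wild-type values in 9 panels and below them in ND3.

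Of the 14 nuclear complex I genes with other names on that list, 13 were measured, 10 were higher and 3 lower, with a median of 0.128. At an unadjusted p under 0.05 in limma 2 were higher and 0 lower, against 4.74% and 5.51% of all genes. None passed the adjusted threshold. Tmem186, a component of the membrane complex that also holds Ndufaf1, read 4.94, 5.17 and 5.19 in wild type and 5.82, 5.59 and 5.77 in knockout. The groups lay well apart, at 0.63 ± 0.16 (SE, limma adjusted p = 0.334). Ndufab1, the mitochondrial acyl carrier protein, read 4.20, 4.19 and 4.60 against 5.00, 4.79 and 4.71, at 0.50 ± 0.18 (SE) and without overlap. Among the partners of Tmem186, Timmdc1 had 0.33 ± 0.17 (SE) without overlap, Ecsit 0.30 ± 0.19 (SE), Tmem126b 0.20 and Acad9 0.00. The factor gene Dmac1 lay on the lower side at -0.41 ± 0.20 (SE), and Nubpl, which delivers iron-sulfur clusters, at -0.27 ± 0.19 (SE).

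The nuclear genes of complexes II to IV, listed together with Cycs for the mobile carrier cytochrome c, gave a background for the same organelle. Of 22 measured, 12 were higher and 10 lower, with a median of 0.067, or 0.014 relative to genes of like signal. In limma, 3 were higher at an unadjusted p under 0.05 (Cycs, Cox7b and Cox5b, at 0.42, 0.42 and 0.43) and 0 lower. Over all genes, 4.74% were higher and 5.51% lower at that p. These 3 lie in the brightest of the 20 groups by signal, where 12.4% of genes were higher. Of 12 regulators of mitochondrial biogenesis, 8 were higher and 4 lower, and 0 had an unadjusted p under 0.05 in limma (0 passed adjusted). Tfb2m, a mitochondrial transcription factor, had 0.40 ± 0.20 (SE), Polrmt, the mitochondrial RNA polymerase, 0.42 ± 0.26 (SE), and Gabpb1, a subunit of the ETS factor GABP, -0.28 ± 0.15 (SE). The factor genes Nrf1, Gabpa and Yy1 had 0.08, 0.16 and 0.18. Polrmt read 6.47 and 6.57 in knockout replicates 1 and 2 and 7.49 in replicate 3, the array that was also high for Ndufaf1.

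The factors NRF-1, GABP and YY1 are known for binding promoters of respiratory genes, and their letters were searched on both strands in the RefSeq promoters of GRCm38.p6, 250 bases before to 50 after each start. Promoters were found for 36 of the 41 genes. The NRF-1 letters, GCGCA and GCGC with any 1 base between them, were in 7 of 36 genes (19.4%), against 4.6% of all 32851 promoters and 6.38% of those of protein-coding genes. The ETS core CCGGAAG was in 6 (16.7%, against 8.86% and 11.6%), and the YY1 letters AAGATGGCG in 5 (13.9%, against 1.4% and 1.83%). None of the 3 was in the promoter windows of Ndufb3, Ndufb10 or Ndufv2. The sites with the NRF-1 letters are shown because their share stands above that of all promoters although most of the 36 genes lack them, in capitals with 10 bases on each side and read along the strand given.
Ndufa8, chr2:36049349-36049378, +: ctccagcgacGCGCAAGCGCactgctctag
Ndufaf5, chr2:140170652-140170681, +: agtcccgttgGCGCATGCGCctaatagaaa
Ndufaf4, chr4:24897960-24897989, +: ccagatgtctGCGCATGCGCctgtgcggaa
Ndufs5, chr4:123718265-123718294, -: gctgcttgctGCGCAGGCGCagacccgctg
Ndufa5, chr6:24527697-24527726, -: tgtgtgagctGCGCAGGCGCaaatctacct
Ndufa6, chr15:82354249-82354278, +: ccttcagcgtGCGCACGCGCggtgccacgg
Ndufa11, chr17:56717692-56717721, +: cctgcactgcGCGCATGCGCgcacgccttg
These 7 genes had log2 fold changes of -0.38 to 0.21. The YY1 letters of Ndufs7 and Ndufaf8 are shown because they lie, like those of Ndufa9, Ndufc1 and Ndufs4, 10 to 35 bases after the start, on the transcribed stretch.
Ndufs7, chr10:80249463-80249491, +: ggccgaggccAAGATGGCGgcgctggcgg
Ndufaf8, chr11:120098934-120098962, +: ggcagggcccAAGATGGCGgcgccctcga
These letters include ATG, and whether they overlap a start codon was not examined. The 5 genes had log2 fold changes of -0.09 to 0.32, and a match describes letters and is no evidence of binding in these cells.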

How the data were processed

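RNA of 6 LSK samples was measured on Affymetrix MoGene 2.0 ST arrays. The authors deposited log2 probe set values (41345 probe sets, 0.83 to 13.53, array medians 4.05 to 4.10). The submitters' processing notes name Affymetrix Expression Console. Its version and its background, summary and normalization settings are not given here. Values on a common scale cannot show a shift in the RNA content of whole cells. Nothing was renormalized for the main values.

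Gene names came from the platform's annotation table: 23521 had 1 symbol, 1814 several and 16010 none. The probe set with the highest mean stood for each of 22180 genes, and the genes of mitochondrial DNA, listed as mt-Nd1 to mt-Nd6, were matched to the table's ND1 to ND6. Groups were compared in limma 3.58.1 (R 4.3.3; lmFit, eBayes with an intensity trend, genotype the only term, two-sided, Benjamini-Hochberg over all genes at 0.05), and the code was tested on simulated data. Replicate numbers were not used to pair the samples in the main fit. Deviations of same-numbered arrays correlated at 0.0203, -0.0314 and -0.0880, which cannot show whether the samples were handled in pairs. Values in all arrays were given for members with an unadjusted p under 0.05, nuclear core subunits, assembly factors and the 3 largest other differences in each direction. Outside that rule they were also given for Ndufa12 and Ndufb6, both higher in knockout without overlap. The same holds for the shared probe sets of Ndufs5 and Ndufb4 and the brighter of those of Ndufs6, but not for the remaining shared probe sets. Members, modules and lists were chosen with earlier results of these data known. Fewer than 4 arrays per group limit the precision, and the array files give no depth. Alternatives were other moderation of the spread, array weights, 3 other scalings, a filter on dim genes, averaging the probe sets of a gene, a replicate block, other membership, other signal windows and leaving out each array. Other spellings of the motifs and 4 general promoter boxes were also searched.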

Additional observations from a re-analysis of the deposited data

How the results depend on the processing

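Of the values for the 41 genes, the direction was kept by all without the intensity trend, with robust moderation, with the replicate block and with averaged probe sets, and by the 40 that passed the filter on dim genes. It turned in 1 with array weights, in 1 with median centring, in 5 under quantile normalization and in 5 under cyclic loess, and in 3 to 8 with 1 array left out, at most 8 without wild-type replicate 1. None of the 5 genes with an unadjusted p under 0.05 reversed, but Ndufb10 lost that p without the intensity trend, with array weights and under all 3 other scalings (p of 0.0506 to 0.0612) and in 3 of 6 fits with 1 array left out, Ndufb9 and Ndufv2 in 2 of 6 such fits and Ndufb3 in 1 of 6. Ndufaf6 kept it in every alternative run. With each array left out in turn, the median of the subunits lay between 0.005 and 0.134, that of the assembly factors between 0.050 and 0.309, that of the subunits relative to genes of like signal between -0.013 and 0.061, and the count of subunits higher at an unadjusted p under 0.05 between 2 and 5, while 0 or 1 gene passed the adjusted threshold over all genes. That 1 gene, without wild-type replicate 3 or without knockout replicate 2, was no complex I gene. The mitochondrially encoded count of 6, added after seeing the data, was 0 without the intensity trend, 2 after quantile normalization, 1 after cyclic loess, 4 after median centring and 4 to 6 with each array left out.

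With the replicate number as a block, 4 subunits were higher at an unadjusted p under 0.05, 4 mitochondrially encoded genes were, and 0 genes passed the adjusted threshold. Quantile normalization also changed the split over all genes at an unadjusted p under 0.05, from 1052 higher and 1222 lower to 1190 and 848. Ndufa4l2 and Ndufs5 had mean signals below the median gene, and no table of signal over background was used.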
